A study of Arabidopsis thaliana with 4 samples.

Results

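The nuclear genes RBCS1A (AT1G67090), RBCS1B (AT5G38430), RBCS2B (AT5G38420) and RBCS3B (AT5G38410) encode the small subunit of Rubisco, and RCA (AT2G39730) encodes Rubisco activase. Every row whose identifier begins with one of these 5 loci was taken. That gave 18 of the 24782 intron entries scored in vivo, the same 18 of the 34255 entries scored under the deproteinized condition, and 7 of the 6605 poly(A) windows scored in vivo. None of the 1068 deproteinized poly(A) windows belonged to these genes. RCA had 9 intron entries, RBCS1A and RBCS2B had 3 each, RBCS1B had 2 and RBCS3B had 1. All 7 poly(A) windows were from RBCS1A.

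Rubisco fixes carbon dioxide in the chloroplast. Its large subunit is encoded in the chloroplast genome, while the small subunit is made in the cytosol from a small family of nearly identical nuclear genes and then imported. Rubisco activase is an ATPase that frees the active site of Rubisco from inhibitory sugar phosphates. In Arabidopsis, alternative splicing near the 3′ end of RCA gives a longer, redox-regulated alpha isoform and a shorter beta isoform.

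The samples were 5-day-old Arabidopsis thaliana Col-0 seedlings. In the in vivo condition, intact seedlings were treated with the SHAPE reagent NAI at 100 mM for 15 min at 22 °C, and nuclear RNA was then extracted. In the deproteinized condition, nuclear RNA was first freed of protein with phenol and chloroform and then treated with NAI in the same way. Each condition also had a (-)SHAPE control with no NAI, and the 2 biological replicates were merged into 1 profile per condition. SHAPE reagents acylate flexible nucleotides, and reverse transcription stops 1 nucleotide before such an adduct, so a higher score stands for a more flexible, usually unpaired nucleotide. Because each condition is 1 profile, no comparison between conditions has a replicate error, and no test between conditions was possible. Protein removal and the move from living cells to extracted RNA go together in this design and cannot be told apart. An entry is an intron with 50 exon nucleotides on each side, and its scores run from 0 to 1 within that entry. Position -1 is the last exon nucleotide before the 5′ splice site (5′ss) and +1 is the first intron nucleotide. The score at -1 comes from reads that begin at +1.

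The 5′ss sequences that carry the main result are printed with positions -2 and -1 in capitals, as 10 exon and 10 intron nucleotides of the RefSeq TAIR10.1 assembly, minus strand. They show how alike the 4 small subunit genes are at the exon end before intron 1, and that RBCS1B and RBCS2B have the same letters around the 5′ss of intron 2.
RBCS1A intron 1 (chr1:25049069-25049088): ctgcatgcAGgtcatttata
RBCS1B intron 1 (chr5:15384975-15384994): ctgcatgaAGgtaatgtcat
RBCS2B intron 1 (chr5:15381798-15381817): ctgcatgaAGgtaaatgtca
RBCS3B intron 1 (chr5:15378126-15378145): ctgcatgaAGgtaatatcat
RBCS1A intron 2, downstream 5′ss (chr1:25048828-25048847): cgagttggAGgtaattaaac
RBCS1B intron 2 (chr5:15384751-15384770): cgagttggAGgtaatataca
RBCS2B intron 2 (chr5:15381573-15381592): cgagttggAGgtaatataca
RCA intron 1 (chr2:16573291-16573310): cagagctcCGgtacacttca
RCA intron 2 (chr2:16572490-16572509): gccttaggCAgtaagttctc
RCA intron 5 (chr2:16571544-16571563): caatctatCGgtaagaaaga

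Of the 18 entries, 15 are introns of at least 1 RefSeq transcript. The other 3 are a version of RBCS2B intron 2 that ends at a 3′ splice site (3′ss) 21 nt further downstream (chr5:15381422-15381582), and a pair of RCA introns inside the annotated exon 1 (chr2:16573386-16573480) and exon 2 (chr2:16572570-16572693). RefSeq introns of these genes with no entry were RBCS3B intron 2, which is annotated in 3 versions, and a 63-nt intron of 1 RBCS1B transcript. Entries overlap where splice sites alternate, so the 18 entries hold 17 different 5′ss and are not independent observations.

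The position that set these genes apart from the other introns was the last exon nucleotide. In vivo, -1 scored above its flanks (-20 to -3 and +1 to +20) in 3 of the 18 entries, against 60.8% of all introns. These were RBCS1A intron 2 at its downstream 5′ss, RCA intron 3 and RCA intron 6 at its downstream 5′ss. After deproteinization, -1 scored above its flanks in 14 of 18, against 67.5% of all introns. The 4 below their flanks were both RBCS1A intron 2 entries, RCA intron 5 and the RCA intron in exon 1. The median difference from the flanks was -0.13 in vivo (mean -0.12 ± 0.25, SD over 18 entries) and 0.50 after deproteinization (mean 0.37 ± 0.37). With scores of 0 treated as missing, which removes 7 entries, the in vivo mean was -0.0283 (11 entries). Over all introns the medians were 0.13 in 23718 introns and 0.26 in 33895 introns. Thus the in vivo values of the Rubisco genes lay mostly below their flanks, where most other introns lay above theirs.

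Within entries, -1 scored higher deproteinized than in vivo in 15 of 18, against 43.7% of the 14871 introns scored in both conditions. The median change was 0.55 (mean 0.47 ± 0.53, SD over 18 entries) for the Rubisco genes and 0.00 over all introns (mean 0.05 ± 0.38). In 12 of 18 entries, from all 5 genes, -1 lay below the flanks in vivo and above them after deproteinization, against 17.2% of all introns. The score went from 0, the lowest possible, to 1, the highest possible, in 4 of 18 entries at 3 different 5′ss, against 1.51% of all introns. These were RBCS3B intron 1, both RBCS2B intron 2 entries and RCA intron 1. These comparisons depend on the in vivo level, since a score of 0 cannot fall and a score of 1 cannot rise. In vivo, 7 of the 18 entries were at 0 and 1 was at 1, against 9.76% and 27% of all introns. Unchanged scores are not counted as higher, and their share was not taken. Introns with like in vivo scores were not compared, so the rise is not a result separate from the low in vivo scores.

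**Figure D1:**
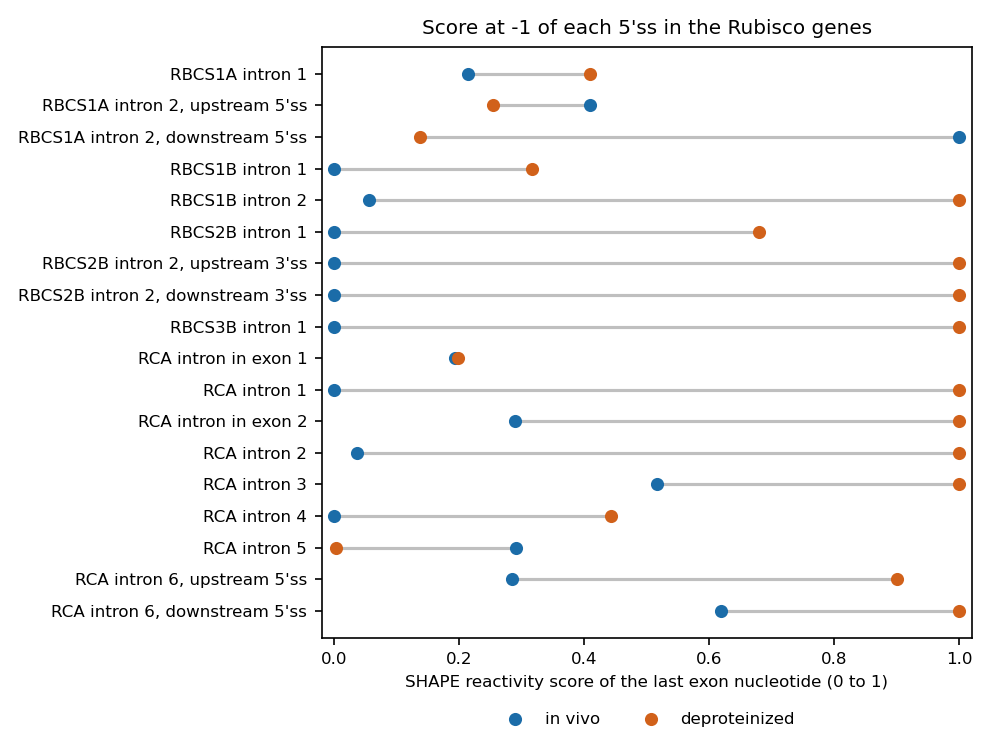
SHAPE reactivity score (0 to 1, x axis) of the last exon nucleotide of each of the 18 entries (y axis), in vivo in blue and deproteinized in orange, with a grey line joining each pair. Orange points lie to the right of blue ones in 15 entries, and the 3 exceptions are both RBCS1A intron 2 entries and RCA intron 5.

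Of the 18 entries, 7 had a -1 score of 0 in vivo (9.76% of all introns) and none did after deproteinization (9.35% of all introns). A -1 score of 1 was found in 1 entry in vivo (27% of all introns) and in 9 after deproteinization (31.9% of all introns). The median share of an entry's nucleotides that scored 1 was 5.32% in vivo (5.03% to 11%) and 5.28% after deproteinization (5.03% to 13.4%). The median share at 0 was 5.36% in vivo (5% to 17%) and 5.26% after deproteinization (5% to 15.3%), so the medians were close while single entries reached higher shares. Read as a rank, -1 exceeded a median of 16.5% of its entry's nucleotides in vivo and 89% after deproteinization.

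The RBCS1B, RBCS2B and RBCS3B genes lie side by side on chromosome 5, and their 6 entries ran the same way at -1. RBCS1B intron 1 scored 0 in vivo and 0.316 deproteinized. RBCS1B intron 2 scored 0.0553 and 1. RBCS2B intron 1 scored 0 and 0.679. All 6 entries were below their flanks in vivo and above them after deproteinization, against 17.2% of all introns. The RBCS2B intron 2 entries share their 5′ss, so the 6 are not separate sites. RBCS1B intron 1 was above its flanks by only 0.034 after deproteinization.

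RBCS1A, on chromosome 1, ran the other way at the downstream 5′ss of intron 2. Its intron 1 scored 0.213 at -1 in vivo, below flanks at 0.589, and 0.408 deproteinized, above flanks at 0.214. At the downstream 5′ss of intron 2 the score was 1 in vivo and 0.137 deproteinized, the largest of the 3 decreases among the 18 entries. The exon end before this 5′ss matches that of RBCS2B at 49 of 50 nucleotides and that of RBCS1B at 48 of 50, and those genes scored the other way round at -1. The upstream 5′ss of intron 2 scored 0.409 in vivo and 0.253 deproteinized. This change of -0.156 was near the mean change over that entry's nucleotides, -0.136. Its difference from the flanks was -0.12 in vivo and -0.09 deproteinized, so -1 lay below them in both conditions.

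In RCA, -1 ranged from 0 to 0.618 in vivo (median 0.284 over 9 entries) and from 0.00221 to 1 deproteinized (median 1). RCA intron 1, the longest intron of these genes, scored 0 and 1. Intron 2 scored 0.0360 and 1, intron 3 scored 0.516 and 1, and intron 4 scored 0 and 0.443. Intron 5 ran the other way, with 0.290 in vivo and 0.00221 deproteinized. Of the entries inside annotated exons, the one in exon 1 scored 0.194 and 0.198, and the one in exon 2 scored 0.290 and 1. Introns 1 to 4 of RCA were thus all higher at -1 after deproteinization, and intron 5 was lower.

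The widest changes lay at the last exon nucleotides. Of the 40 positions from -20 to +20, -1 had the largest mean change in the Rubisco genes (0.47) and -2 the next largest (0.14), followed by +7 (0.10). At +1, the G of the intron's first dinucleotide, the mean change was -0.09, the lowest of the 40. There 12 of 18 entries were lower after deproteinization and 6 were higher, against 54.1% of all introns higher. At -3 the mean change was also -0.09, with 13 of 18 lower and 5 higher, against 55.5% of all introns higher. Over all introns the mean changes were 0.05 at -1, 0.05 at -2, 0.03 at -3 and 0.01 at +1. Scores are scaled within each entry. The mean change over all nucleotides of an entry ran from -0.22 in RBCS1A intron 1 to 0.09 in RBCS3B intron 1. The part of scaling in the small changes at +1 and -3 was not tested.

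**Figure D2:**
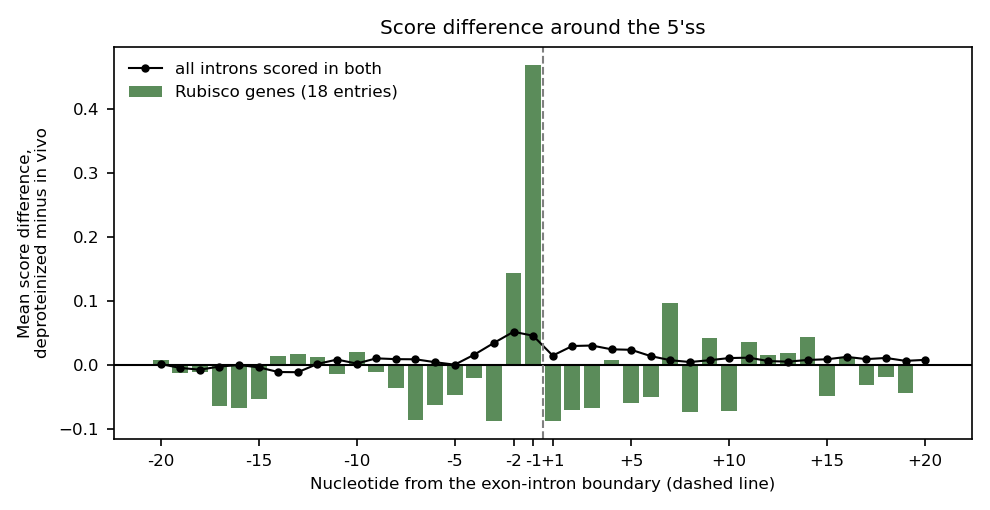
Mean score difference, deproteinized minus in vivo (y axis, score units), at each nucleotide from -20 to +20 of the exon-intron boundary (x axis); bars are means over the 18 Rubisco gene entries and the black line is the mean over all introns scored in both conditions. The bar at -1 reaches 0.47 and that at -2 reaches 0.14, while the line stays at 0.05 at both.

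Position -2 differed less between conditions than -1. It scored above its flanks in 9 of 18 entries in vivo (44.8% of all introns) and in 12 of 18 deproteinized (56.1% of all introns). It was higher deproteinized in 11 of 18 entries, against 56.1% of introns scored in both conditions, a share near that background. RCA had a mean -2 difference from the flanks of -0.08 ± 0.15 in vivo and 0.19 ± 0.16 deproteinized (SD over 9 entries). The small subunit genes had -0.00309 ± 0.124 and 0.05 ± 0.23 (SD over 9 entries). The widest single change was RBCS1B intron 1, from 0 to 0.885.

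The base at -1 is G in 15 entries, of which 13 scored higher deproteinized, and A in 3, of which 2 did. Over all introns scored in both conditions, -1 was higher deproteinized in 42.7% of those ending in G and 47.7% of those ending in A.

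One score between 0 and 1 recurred many times within each entry, and how often it did so differed between conditions. In the small subunit genes this recurring score took a median of 45.8% of nucleotides in vivo (24.7% to 59.4%) and 19.6% deproteinized (6.84% to 35.4%). In RCA it took 24.1% (11.6% to 56.3%) and 15.8% (11.2% to 33.6%). No -1 score of the 18 entries was the recurring score of its entry in either condition. The part of the flatter in vivo profiles in the change at -1 was not tested.

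RCA intron 6 carries the alternative splice that makes the 2 isoforms. The upstream 5′ss (intron chr2:16571067-16571190) belongs to the RefSeq transcript with the longest protein, and the downstream 5′ss, 11 nt on, belongs to one with a shorter protein. The third RefSeq transcript keeps this intron. The stretch that holds both sites (chr2:16571169-16571198, minus strand, RefSeq TAIR10.1) is printed with the first dinucleotide of each intron in capitals.
RCA both 5′ss: tttctacgGTaaaacagagGTttgaaactc

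In the entry for the upstream 5′ss, the G at its -1 scored 0.284 in vivo and 0.900 deproteinized. In the entry for the downstream 5′ss, the G at its -1 scored 0.618 in vivo and 1 deproteinized. Both were higher after deproteinization, and the downstream site was the higher one in each condition. It lay above its flanks in both conditions, by 0.33 in vivo and 0.69 deproteinized, whereas the upstream site lay 0.02 below its flanks in vivo and 0.59 above them deproteinized. At -2 the upstream site scored 0.201 in vivo and 0.485 deproteinized, and the downstream site 0.127 and 0.200. Over the nucleotides that the entries share, scores correlated at r = 1.00 with a median ratio of 0.997 in vivo and 0.988 deproteinized, so both entries were on nearly the same scale.

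RBCS1A intron 2 has a similar pair of 5′ss, 7 nt apart, each used by 1 RefSeq transcript. The upstream site belongs to the transcript with the shorter protein. Both first dinucleotides are in capitals in the stretch chr1:25048823-25048852, minus strand.
RBCS1A both 5′ss: gaattcgaGTtggagGTaattaaacaaaat

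Here the downstream site was again the higher one in vivo, at 1 against 0.409. After deproteinization the order turned, with 0.137 at the downstream site and 0.253 at the upstream one. These entries differed in scale there, with a median ratio of 0.877 over shared nucleotides. Within the upstream entry alone, the same downstream nucleotide scored 0.176 deproteinized, still below 0.253. The downstream site was the only 5′ss of the small subunit genes with -1 above its flanks in vivo, by 0.47.

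**Figure D3:**
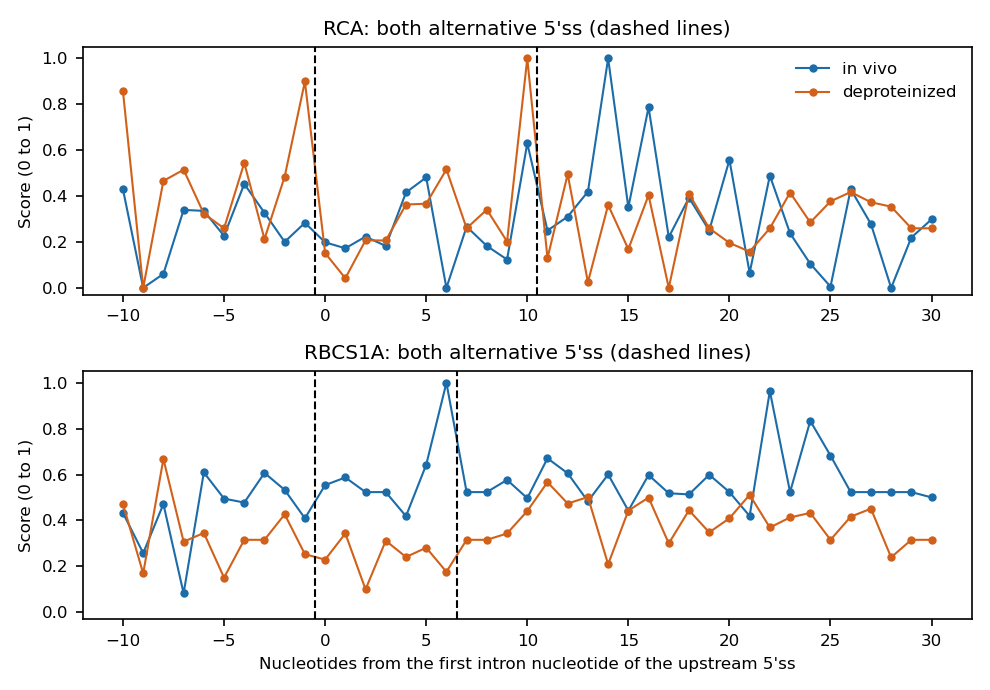
SHAPE reactivity score (0 to 1, y axis) along the stretch with both alternative 5′ss of RCA intron 6 (top) and RBCS1A intron 2 (bottom), in vivo in blue and deproteinized in orange, counted in nucleotides from the first intron nucleotide of the upstream site (x axis); dashed lines mark both exon-intron boundaries. In RCA the orange line peaks just before each boundary, at 0.900 and 1, while in RBCS1A the peak before the downstream boundary is blue, at 1.

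RBCS2B intron 2 has alternative 3′ss 21 nt apart, and only the upstream one is in RefSeq. The same 21-nt spacing is found between annotated 3′ss of RBCS3B intron 2. The last dinucleotide of each RBCS2B version is in capitals in chr5:15381418-15381447, minus strand, and the same few letters follow each of them.
RBCS2B both 3′ss: tatAGcacggatttgtgtaccgtgAGcacg

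The RBCS2B entries show how the scaling works. Over their 240 shared nucleotides the deproteinized scores were almost the same (r = 1.00, median ratio 1.02), and all 240 pairs were within 0.1. In vivo, the entry with the downstream 3′ss scored the same nucleotides at a median of 0.394 of the other entry's score (r = 0.84), and 32 of 240 pairs were within 0.1. Levels between 0 and 1 therefore cannot be compared between entries or conditions at face value. The scores of 0 at -1 in vivo and of 1 deproteinized were the same in both entries.

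**Figure D4:**
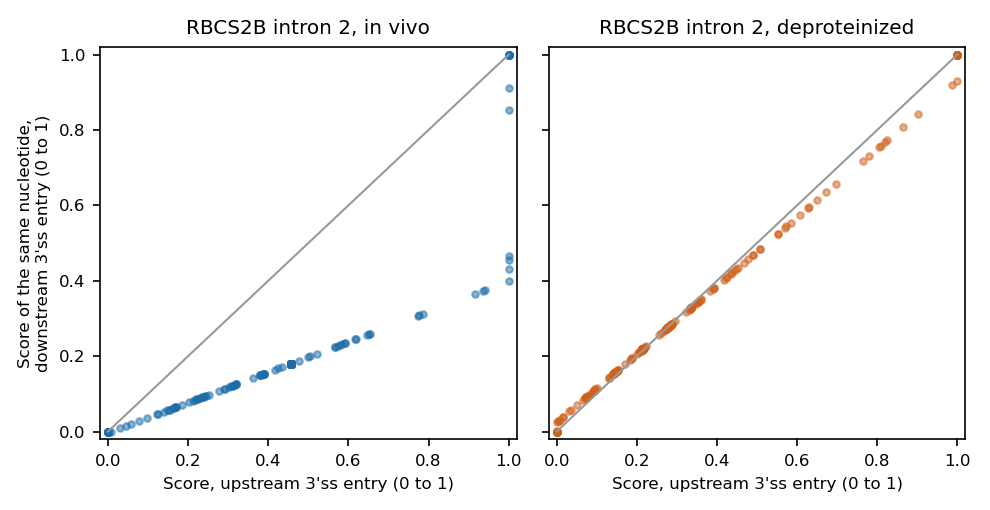
Scores of the same 240 nucleotides in the RBCS2B intron 2 entry with the upstream 3′ss (x axis, 0 to 1) and in the entry with the downstream 3′ss (y axis, 0 to 1), in vivo (left) and deproteinized (right); each point is 1 nucleotide and the grey line marks equal scores. Deproteinized points follow the line, with a median ratio of 1.02, while in vivo points fall on a shallower slope, with a median ratio of 0.394.

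Pearson correlations between in vivo and deproteinized scores within an entry had a median of 0.28 over the 18 entries, against 0.31 over 15677 introns. They ranged from -0.19 in RBCS1A intron 1 to 0.45 in RCA intron 4, with a median of 0.30 in the small subunit genes and 0.28 in RCA. The points within an entry share libraries, scaling and base composition, so these values are descriptions. Over intron nucleotides alone the median was 0.12.

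Exon-end scores of the small subunit genes correlated at most at 0.41 in either condition, despite their like exon sequences. In vivo, the recurring score took a median of 45.8% of the nucleotides of these genes' entries, and depth is unknown. Low correlations therefore do not show that the structures differ, and the part of the recurring score in them was not tested. Before intron 1, exon ends were identical at 44 to 48 of 50 nucleotides between genes, yet scores correlated across these nucleotides at -0.28 to 0.41 in vivo and -0.18 to 0.34 deproteinized. Before intron 2, where 48 or 49 of 50 were identical, they correlated at -0.08 to 0.24 in vivo and -0.24 to 0.41 deproteinized. The highest of these deproteinized values, 0.41, was between RBCS1B and RBCS2B.

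Only uniquely mapped reads were scored, and these genes are near copies. Each -1 nucleotide was followed by 50 letters that occur once in the genome, so the -1 positions are distinguishable at that length. In RBCS1B intron 2, 48.3% of the entry's nucleotides were followed by 100 letters that also occur at chr5:15377591-15377820 in RBCS3B, in the region of the RBCS3B intron that has no entry. Those nucleotides held the recurring score at 33.6% in vivo and 16.8% deproteinized. The other 140, which include the 5′ss, held it at 83.6% and 52.9%, so the profile was flatter in that part. The repeated part runs from intron nucleotide 91 through the downstream exon to the end of the entry. Repeated sequence and position in the entry therefore cannot be told apart here. No other entry had a nucleotide followed by a repeated stretch of 100 letters.

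Folding the last 50 exon and first 50 intron nucleotides with the scores as constraints gave a mean unpaired probability at -2 and -1 of 0.353 ± 0.370 in vivo and 0.355 ± 0.328 deproteinized (SD over 18 entries). The means over all introns were 0.359 and 0.379. The means of the folded models were thus nearly the same in both conditions. Entries differed widely: RCA's intron in exon 1 was at 1.00 in both conditions and RBCS3B intron 1 at 0.812 and 0.933, whereas both RBCS2B intron 2 entries lay at 0.0308 or lower in both. RBCS1A intron 2 at the downstream 5′ss went from 0.702 in vivo to 0.00867 deproteinized. Its score fell too, but the scores are inputs to the fold, so the shared direction is no separate evidence. Folded without scores, this 5′ss was at 0.109.

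At the 3′ end of the intron, positions -7 to -4 from the intron end scored above -20 to -8 in 6 of 18 entries in vivo (39.6% of all introns) and in 3 of 17 deproteinized (36.3% of all introns). RCA's intron in exon 1 had no deproteinized values there. Mean differences were -0.05 ± 0.11 in vivo (SD over 18 entries) and -0.05 ± 0.11 deproteinized (SD over 17), and RBCS1A intron 1 was highest in vivo at 0.24. RCA intron 1 was highest deproteinized at 0.21.

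A branch site is the adenosine that attacks the 5′ss in the first splicing step. The motif CURAY (C, U, A or G, A, C or U, on the transcript strand), with its A 15 to 50 nt from the intron end, was found in 2 of the 18 introns, and in 23.9% of 23069 introns of the in vivo table. They were RBCS1A intron 1 and RCA intron 5, printed with the motif in capitals.
RBCS1A intron 1 branch (chr1:25048989-25049009): acataaaCTAATatcattgga
RCA intron 5 branch (chr2:16571485-16571505): gcagaatCTGATatgtgtttt

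In RBCS1A intron 1 the A, 27 nt from the intron end, scored 0 in both conditions, below flanks at 0.453 in vivo and 0.321 deproteinized. In RCA intron 5 the A, 23 nt from the end, scored 0 in vivo and 1 deproteinized, with flanks at 0.335 and 0.346. The A thus lay above its flanks in 0 of 2 in vivo (58.2% of all introns with the motif) and in 1 of 2 deproteinized (60.5%).

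The exon downstream of the intron scored above the upstream exon in 15 of 18 entries in vivo (73.8% of all introns) and in 17 of 18 deproteinized (77.4%). The median difference was 0.17 in vivo and 0.16 deproteinized, against 0.06 and 0.07 over all introns. RBCS1B intron 2 had the widest gap, with 0.218 upstream and 0.626 downstream after deproteinization. The exon sides may not be like measures. The paper calculated reactivities across the 5′ss and the intron. It states that reads starting just past the 3′ss cannot be assigned with confidence to spliced or unspliced RNA. Whether spliced RNA enters the downstream exon scores was not tested. By base, A and G scored highest in vivo over the nucleotides of these genes (means 0.400 and 0.403), and C lowest (0.352). After deproteinization G was at 0.408 and C at 0.310.

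The same values were taken for other genes of the Calvin cycle, the pathway of Rubisco, from a list of kinases, dehydrogenases, aldolases and others. Of 20 listed genes, 12 had introns scored in both conditions. There -1 was higher deproteinized in 29 of their 51 introns (56.9%, against 43.7% of all introns), with a median change of 0.04. None of the 51 went from 0 to 1, a count near the share of 1.51% over all introns. In vivo, -1 was above the flanks in 44 of 84 introns (52.4%, against 60.8% of all introns). Deproteinized, it was so in 38 of 64 (59.4%, against 67.5%).

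The introns whose in vivo profile from -20 to +20 was most like the mean of the 18 entries, by Pearson's r over 40 positions, came from AT4G35500 (r = 0.62), NDB2 (AT4G05020, r = 0.60) and AT2G45700 (r = 0.59). They were the top of 21839 introns with no missing position.

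Poly(A) site cleavage ends the transcript, and RBCS1A had 7 scored sites in vivo. The windows are 100 nt long with the site at nucleotide 51, their scores run from 0 to 2, and they are numbered from the most upstream. The site of window 1 lay at chr1:25048282, and those of windows 2 to 6 lay 68, 60, 45, 26 and 16 nt before the annotated RBCS1A end (chr1:25048158, minus strand). The site of window 7 lay 1 nt past that end. The region from -28 to -17 and that from -4 to +1 are in capitals for windows 1, 3 and 6, chosen because these stretches do not overlap.
RBCS1A poly(A) window 1 (chr1:25048281-25048310): GTCTGATGAAATaaatatgtaatgTTCTAT
RBCS1A poly(A) window 3 (chr1:25048217-25048246): GAAAATAGGACAatgcggctacaaATATGA
RBCS1A poly(A) window 6 (chr1:25048173-25048202): AGAACCATGAGTcgctaaagaaatCATTAA

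The canonical poly(A) signal AATAAA (on the transcript strand) was in window 1 alone, starting at -19, and in 12.5% of 6598 in vivo windows. Its 6 nucleotides had a mean score of 1.04, above the window's mean of 0.932 ± 0.508 (SD over 100 nucleotides). In order they scored 1.36, 1.55, 1.61, 0.856, 0 and 0.856, where 0.856 is the window's recurring score. The motif was thus not high throughout.

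The region from -28 to -17 scored above the rest of the window in 3 of 7 windows (52.6% of all in vivo windows), and that from -4 to +1 in 5 of 7 (49.1%). Mean differences from the rest were 0.04 ± 0.14 and 0.11 ± 0.21 (SD over 7 windows). The -28 to -17 region was highest in window 1, at 1.07 against 0.919 for the rest, and in window 5, at 1.03 against 0.770. It was lowest against the rest in window 6, at 0.666 against 0.810. The -4 to +1 region was highest in window 5, at 1.18, and lowest in window 2, at 0.594 against 0.800.

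The site nucleotide itself scored 0.856, 0.979, 0.413, 1.08, 0.60, 0.360 and 1.34 in windows 1 to 7. The windows overlap, so they are 7 views of 1 stretch of RNA rather than 7 replicates. Windows that shared at least 50 nucleotides (12 pairs) correlated at 0.969 to 1.00 over the shared nucleotides. Single nucleotides could still differ, and the site nucleotide of window 4 scored from 0.580 to 1.43 in the 6 windows that held it.

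In each window 6 nucleotides scored 2, the maximum, and 5 scored 0, and some of the same nucleotides reached the maximum in every window that held them. The A at chr1:25048186 and the C at chr1:25048178 scored 2 in all 6 windows that held each. The A at chr1:25048208 did so in all 5 and the A at chr1:25048168 in all 4. The first 2 of these lie 2 nt before the site of window 5 and 4 nt before that of window 6, inside their -4 to +1 regions. With no deproteinized window for these genes, whether proteins affect these scores could not be examined.

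**Figure D5:**
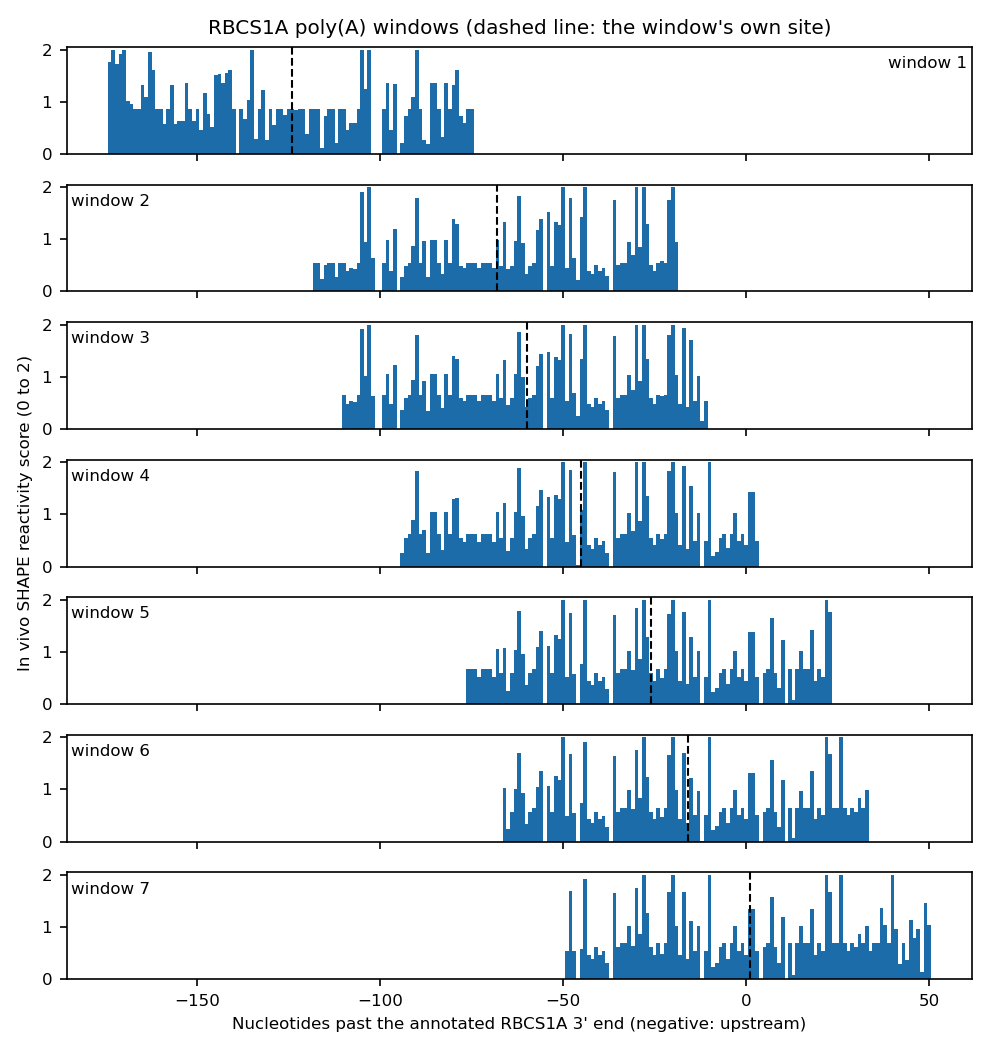
In vivo SHAPE reactivity score (0 to 2, y axis) of each nucleotide in the 7 RBCS1A poly(A) windows, aligned by distance from the annotated 3′ end (x axis, nucleotides, negative values upstream); the dashed line in each panel is that window's own site. The same nucleotides are high in neighbouring windows, and the site of window 7 lies 1 nt past the annotated end.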

How the data were processed

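The authors checked read quality with FastQC 0.11.5, removed reads of low quality, trimmed adapters with cutadapt 1.14 and aligned the reads with HISAT2 2.1.0 to TAIR10 with AtRTD2 isoforms, keeping uniquely mapped reads. For splicing, unsplit reads over exon-intron junctions and introns were kept. For polyadenylation, they kept reads that span a poly(A) site or lie beyond it. Stops of reverse transcription in (+)SHAPE and (-)SHAPE libraries, with replicates merged, gave the deposited SHAPE reactivity scores, 0 to 1 per intron entry and 0 to 2 per poly(A) window. Their methods leave the last dinucleotide of the intron out, but the deposited rows hold scores for it. Those scores were not described on their own here. Values over whole entries, such as correlations, shares of nucleotides and comparisons of shared nucleotides, do include them. Read counts are not in the tables, so the depth behind each score is unknown and no counting interval can be given. Only the first 584 nucleotides of an entry were used, which covers every entry of these genes.

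Scores were summarised with Python 3.11.15, NumPy 2.4.6 and SciPy 1.17.1, and plotted with Matplotlib 3.10.9. Flank means needed at least 10 scored nucleotides. Branch site flanks were 3 to 10 nt away on each side. Folding used ViennaRNA 2.7.2 at 37 °C with the Deigan constraint (slope 1.8, intercept -0.6). Of 43246 introns placed on TAIR10.1, 97.3% began with GT and ended with AG, so coordinates were read from that assembly. The recurring score is the most frequent value between the ends of the scale. The measures were tested on simulated entries with known offsets. All rows of the 5 genes are described, other genes are named by the likeness of their in vivo profile, and the Calvin cycle list is given by counts and medians. Members and lists were chosen with earlier results of these data known. Alternatives covered zeros, the recurring score, flank length, medians, overlapping entries, motif, site position and folding without scores.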

Additional observations from a re-analysis of the deposited data

How the results depend on the processing

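Of 70 alternative values computed for 14 results, 68 kept their direction and moved by less than the SD over entries. Some of the 68 could not differ, so the count overstates how much was tried. The limit to entries in both conditions kept all 18 entries, and a narrower branch distance kept the same 2 introns. Unpaired probabilities are never negative, so their direction could not reverse. With scores of 0 treated as missing, the in vivo mean difference of -1 from the flanks went from -0.12 to -0.0283 (11 entries). Treating the recurring score as missing could not move the change at -1, since no -1 score is a recurring score. The 2 that reversed were both branch site results with the looser motif YUNAY, found in 8 introns instead of 2. The difference from the flanks went from -0.39 to 0.0257 in vivo and from 0.17 to -0.00681 deproteinized. The alternative's larger set of introns changed the entries averaged, and the cause was not tested further. With scores of 0 treated as missing, no in vivo branch site value was left. The mean change at -1 ranged from 0.27 (zeros missing, 11 entries) to 0.55 (median over entries), and these alternatives, like that limited to RefSeq introns, were chosen after the data were seen.

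Conditions were compared within each entry, but no paired test over replicates was possible because each condition is 1 merged profile. These genes have no deproteinized poly(A) window, so that result has no value. Depth is unknown, so scores cannot be weighted by it, and overlapping entries and paralogs share sequence.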
